A study of Mus musculus with 121 samples.

Results

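The genes described here are 48 mouse genes of the interferon response, a fixed list taken by symbol, and all 48 were present in each of 3 count tables (time-series RNA-seq, RNA-seq of untreated lines and TT-seq) that together list 60430 gene symbols. The cells were asynchronous G1E-ER4, an erythroid progenitor line derived from mouse embryonic stem cells, and the study asked how removal of the transcription factor YY1 alters transcription. In the YY1-AID subline the YY1 protein is fused to an AID degron, through which added auxin sends it for degradation. RNA-seq was made from this subline after 4, 24 and 48 h of auxin and at 0 h (3 libraries each), and TT-seq was made after 4 h of auxin and without it (3 libraries each). TT-seq captures RNA made while cells took up 4-thiouridine (500 µM for 5 min), so it reads recent transcription. A separate RNA-seq table held untreated cells of YY1-AID subline3, the YY1-AID subline and the parental line (2 libraries each). All libraries of the auxin comparisons therefore carry the degron, subline3 is labelled as a clone, and no group of parental cells given auxin was analysed here. The time series has its untreated cells at 0 h only, so loss of YY1, exposure to auxin and time in culture cannot be told apart in it.

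Interferons are secreted by cells that sense foreign nucleic acid and bind receptors whose Janus kinases phosphorylate STAT proteins. A complex that includes STAT2 and IRF9 then binds interferon-stimulated response elements (ISRE) in promoters and switches on antiviral genes, among them RNA-binding enzymes, membrane proteins that trap viruses, ubiquitin-like modifiers and parts of the antigen presentation machinery. Many of these genes also have a basal level without added interferon.

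Values are read counts per gene, given below as CPM (counts scaled to a common library size, with TMM factors). All fold changes are log2 differences from edgeR's quasi-likelihood test, called at a Benjamini-Hochberg adjusted p under 0.05 over all genes tested in a table. Their standard error (±) was worked back from that test, as the absolute log2 change divided by the square root of its F statistic. Libraries held about 25093000 to 26210200 counts in the time series, 35171500 to 44919700 in the untreated lines and 30229900 to 53453600 in TT-seq. Yy1 itself averaged 206 ± 5.09 CPM after 4 h of auxin and 184 ± 12.3 CPM without it in TT-seq (SD, n = 3 each), a log2 difference of 0.16 ± 0.08 that did not pass (adjusted p = 0.276). With the replicate number as a block it passed (0.16 ± 0.04), higher in 3 of 3 numbered pairs, and with spike-in sizes and the block it did not (0.13 ± 0.06). The degron acts on the protein, so RNA does not check the treatment. Of 10 erythroid markers, 9 were listed in the time series and had counts at every time, with summed levels of 1706 to 2374 CPM. At 48 h their log2 changes ran from −0.57 to 2.85, with 4 higher and 3 lower. Those are 44.4% and 33.3%, against 24.9% and 24.6% of all tested genes. In TT-seq Hba-a1 and Hbb-b1 had 0 counts in every library. All 10 markers, these included, had counts in RNA-seq of each untreated line, and the reason for this gap was not tested. The macrophage and granulocyte list stayed at or under 4.92 CPM in every time-series library.

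Of the 48 genes, 27 had enough counts to be tested in TT-seq, 32 in the time series and 32 in the untreated lines; 26 were tested in all 3 tables and 15 in none. The 15 were Parp12, Isg15, Ifit1, Ifit2, Ifit3, Oasl1, Oasl2, Mx2, Rsad2, Zbp1, Gbp2, Gbp3, Ifi44, Herc6 and Ddx60, which include classic reporters of strong interferon signalling. Their highest count in any library was 31 in the time series (Ifit2, 4 h replicate 1), 18 in TT-seq and 8 in the untreated lines, and 9 of the 15 never exceeded 3 counts in a time-series library. Isg15, the ubiquitin-like modifier, had 0 to 3 counts in each of the 12 time-series libraries, and Zbp1 and Parp12 had 0 in all of them. The genes that could be tested passed partly through the groups where they are high, so the counts below cover tested genes and not the whole list.

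Promoter sequences from RefSeq (GRCm38.p6, 250 bases before to 50 bases after the annotated start) were found for 41 of the 48 genes and searched on both strands for 3 short motifs. The ISRE letters, GAAA repeated after a gap of 2 bases of any kind, occurred in 17 of the 41 (41.5%), against 1079 of 27025 genes in the whole promoter table (3.99%). Of the 17 genes that were higher after 48 h of auxin (below), 14 had an entry, and Mx1, Parp9 and Parp14 had none. Among the 14, 8 held the ISRE letters, against 0 of the 4 that were lower and 2 of the 10 that were tested without passing. They also occurred in 7 of the 13 genes that were not tested in the time series. Oas1a and Ifitm3, which are among the 8, were called from few reads. Where a gene had several entries, the largest number of matches was used. The STAT letters TTCNNNGAA occurred in 8 of the 41 (19.5%), against 9.55% of all genes, and the YY1 letters GCCATNTT in 0 of the 41, against 6.96%; ISRE and STAT matches may overlap each other. A match describes letters only. The promoters below belong to the 4 genes with the smallest adjusted p after auxin that have an entry (250 bases before the start, 5′ to 3′ in the direction of the gene); capitals in Bst2 mark the run of 1 STAT and 2 ISRE matches that overlap each other, and the other 3 hold no match.
Bst2 (chr8:71537473-71537722, minus strand): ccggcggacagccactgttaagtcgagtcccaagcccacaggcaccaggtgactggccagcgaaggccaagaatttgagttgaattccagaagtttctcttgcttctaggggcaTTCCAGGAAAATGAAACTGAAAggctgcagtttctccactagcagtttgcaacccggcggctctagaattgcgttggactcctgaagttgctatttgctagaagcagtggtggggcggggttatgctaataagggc
Nmi (chr2:51973209-51973458, minus strand): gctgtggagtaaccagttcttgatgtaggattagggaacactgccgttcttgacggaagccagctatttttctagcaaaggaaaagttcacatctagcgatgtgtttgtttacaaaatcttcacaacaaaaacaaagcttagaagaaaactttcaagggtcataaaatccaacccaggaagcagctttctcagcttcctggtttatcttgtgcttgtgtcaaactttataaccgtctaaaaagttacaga
Rnf213 (chr11:119389849-119390098, plus strand): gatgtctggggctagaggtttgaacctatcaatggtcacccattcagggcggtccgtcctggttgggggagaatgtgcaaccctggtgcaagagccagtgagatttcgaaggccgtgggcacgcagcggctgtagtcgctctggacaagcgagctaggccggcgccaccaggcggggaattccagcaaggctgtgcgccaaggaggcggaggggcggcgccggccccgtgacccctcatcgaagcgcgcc
Trim25 (chr11:88999153-88999402, plus strand): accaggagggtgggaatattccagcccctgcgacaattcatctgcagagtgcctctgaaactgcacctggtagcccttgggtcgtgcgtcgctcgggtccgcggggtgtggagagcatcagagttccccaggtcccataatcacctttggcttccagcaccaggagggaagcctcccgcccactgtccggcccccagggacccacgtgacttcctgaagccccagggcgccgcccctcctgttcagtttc

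The 7 other genes that were higher at 48 h and held an ISRE match are shown by 30 bases around it, chosen after their values were known, so that the repeated letters can be compared (capitals mark the match or overlapping matches; in Stat2 and Ddx58 the match reads on the opposite strand).
Stat2 (chr10:128270266-128270295, plus strand): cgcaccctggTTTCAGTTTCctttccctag
Ddx58 (chr4:40239804-40239833, minus strand): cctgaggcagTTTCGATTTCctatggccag
Oas1a (chr5:120907523-120907552, minus strand): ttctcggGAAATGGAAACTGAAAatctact
Oas3 (chr5:120777715-120777744, minus strand): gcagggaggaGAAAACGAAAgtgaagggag
Ifitm3 (chr7:141010723-141010752, minus strand): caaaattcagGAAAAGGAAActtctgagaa
Trim21 (chr7:102565447-102565476, minus strand): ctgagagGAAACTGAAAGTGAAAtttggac
B2m (chr2:122147538-122147567, plus strand): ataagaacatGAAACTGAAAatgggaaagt
The first base of the match lay 222 bases before the start in Stat2, 139 in B2m, 75 in Oas3 and 20 in Oas1a, and at base 3 after the start in Ddx58 and Ifitm3 and base 14 in Trim21.

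In the fit without a replicate block few interferon genes passed the test in newly made RNA after 4 h of auxin. This fit leaves out the shared deviations of same-numbered libraries, and with the block more genes passed, as given below. In TT-seq without the block, 2 of the 27 tested genes were higher, against 2.11% of all tested genes, and 1 was lower, against 7.09%. The higher genes were the transcription factor Irf1 and the ADP-ribosyltransferase Parp14, and the lower gene was the giant ubiquitin ligase Rnf213. The median log2 change was 0.12 over the 27 and 0.02 over all 11218 tested genes. Irf1 had 2.92, 2.64 and 3.67 CPM after auxin and 1.93, 1.79 and 1.85 CPM without it. Parp14 had 8.67, 8.84 and 8.21 CPM after auxin and 6.05, 6.10 and 5.58 CPM without it. Rnf213 had 42.6, 36.8 and 43.1 CPM after auxin and 63.5, 56.2 and 66.5 CPM without it. For each of these genes the auxin and untreated libraries did not overlap. The log2 changes were 0.73 ± 0.19 for Irf1 (adjusted p = 0.0459), 0.54 ± 0.11 for Parp14 (adjusted p = 0.0240) and −0.61 ± 0.10 for Rnf213 (adjusted p = 0.00833). The calls are fragile in fits without a block. Parp14 was lost without any of the 6 libraries, Irf1 without any but auxin replicate 2, and Rnf213 without untreated replicate 3. None of the 3 passed with library sizes from the Drosophila spike-in without a block. All 3 passed with those sizes and the replicate number as a block (0.67 for Irf1, 0.50 for Parp14 and −0.64 for Rnf213).

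Same-numbered TT-seq libraries deviated together, and with the number as a block 7 of the 27 genes were higher, against 22.7% of all genes, and 5 were lower, against 25.3%. The added higher genes were the antiviral membrane protein Bst2 (0.60 ± 0.15), the RNA sensor Ddx58, which encodes RIG-I (0.50 ± 0.16), the oligoadenylate synthetase Oas3 (0.33 ± 0.13), the helicase Helz2 (0.33 ± 0.08) and Irf9 (0.27 ± 0.11). The added lower genes were Samd9l (−0.46 ± 0.10), Adar, an RNA-editing deaminase (−0.19 ± 0.05), the ubiquitin ligase Trim25 (−0.18 ± 0.05) and B2m, the light chain of class I antigen-presenting molecules (−0.18 ± 0.06). With spike-in sizes in the same blocked fit the calls of Oas3 (0.29), Irf9 (0.22) and B2m (−0.22) were lost and those of the other 9 genes kept. Bst2 had 3.51, 2.84 and 3.59 CPM after auxin and 2.37, 1.79 and 2.44 CPM without it, higher in each of the 3 numbered pairs. Samd9l had 5.56, 4.97 and 6.89 CPM after auxin and 8.82, 6.83 and 8.51 CPM without it, lower in each pair although the groups overlap. The genes with the most TT-seq reads were Rnf213, Adar and Trim25, and those with the fewest among the tested were Lgals3bp, Ifitm1 and Usp18, the last with 0.197, 0.267 and 0.349 CPM after auxin and 0.073, 0.135 and 0.382 CPM without it.

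**Figure D1:**
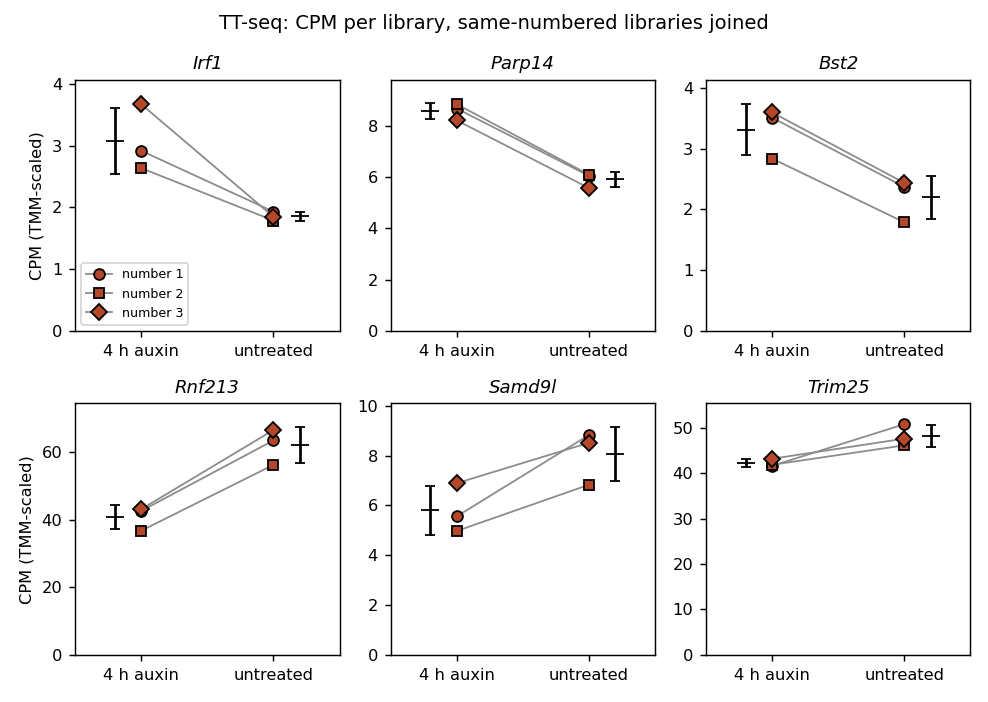
TT-seq CPM (y axis, from 0) of 6 interferon genes in 4 h auxin (left) and untreated (right) libraries; points are libraries, lines join libraries with the same number, and bars give the mean ± SD of each group. Irf1, Parp14 and Bst2 lie higher after auxin in all 3 numbered pairs, and Rnf213, Samd9l and Trim25 lie lower in all 3.

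In steady-state RNA 3 of the 32 tested interferon genes passed at 4 h, 16 at 24 h and 21 at 48 h, more of them upward at the later times. At 4 h, 1 of 32 tested genes was higher, against 3.14% of all tested genes, and 2 were lower, against 4.14%. At 24 h, 12 were higher and 4 lower, against 21.5% of all tested genes in either direction, and at 48 h 17 were higher, against 24.9%, and 4 lower, against 24.6%. As shares of the 32, 37.5% were higher and 12.5% lower at 24 h, and 53.1% higher and 12.5% lower at 48 h. Median log2 changes of the 32 were −0.09 at 4 h, 0.15 at 24 h and 0.45 at 48 h, against 0.01, 0.03 and 0.03 over all 15157 tested genes. Without a filter on low counts the medians of the interferon genes were −0.17, 0.06 and 0.32, and with DESeq2 −0.18, 0.05 and 0.33, each against 0 over all genes. The 3 comparisons share the 0 h libraries, so they are not independent of each other. In the fits without a block no gene was higher in one comparison against untreated or 0 h cells and lower in another. With the block in TT-seq B2m was lower there (−0.18 ± 0.06), while the fit without a block called it higher at 48 h. Leaving out 24 h replicate 3 brought the higher genes at 24 h to 7; the higher count at 48 h stayed within 1.5 times of 17 under every alternative tried.

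**Figure D2:**
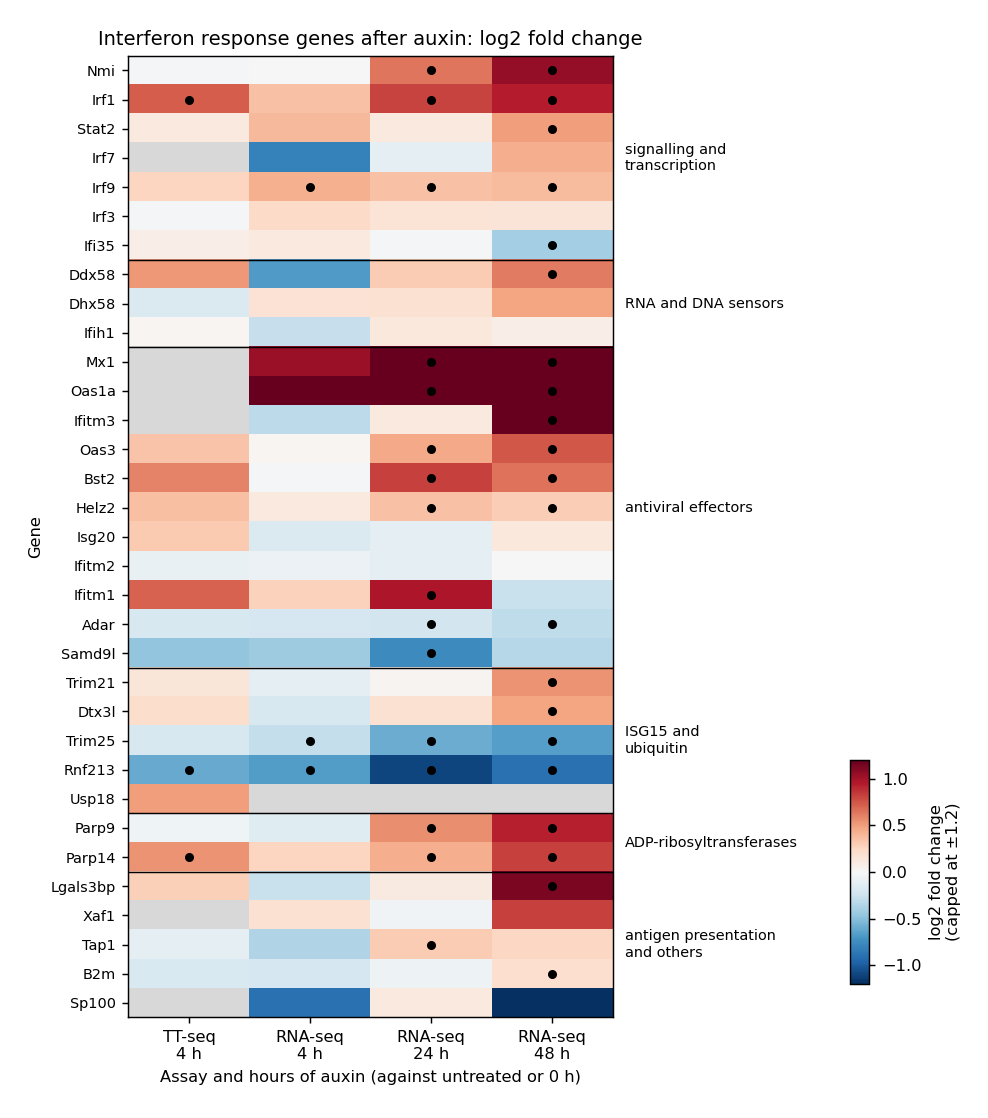
Log2 fold changes (colour, capped at ±1.2) of the 33 interferon genes tested in TT-seq or the time series, grouped by role, after auxin against untreated or 0 h cells; black dots mark an adjusted p under 0.05 and grey cells were not tested. Dots at 24 and 48 h sit mostly on red cells, and blue cells with dots are those of Ifi35, Adar, Samd9l, Trim25 and Rnf213.

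**Figure D3:**
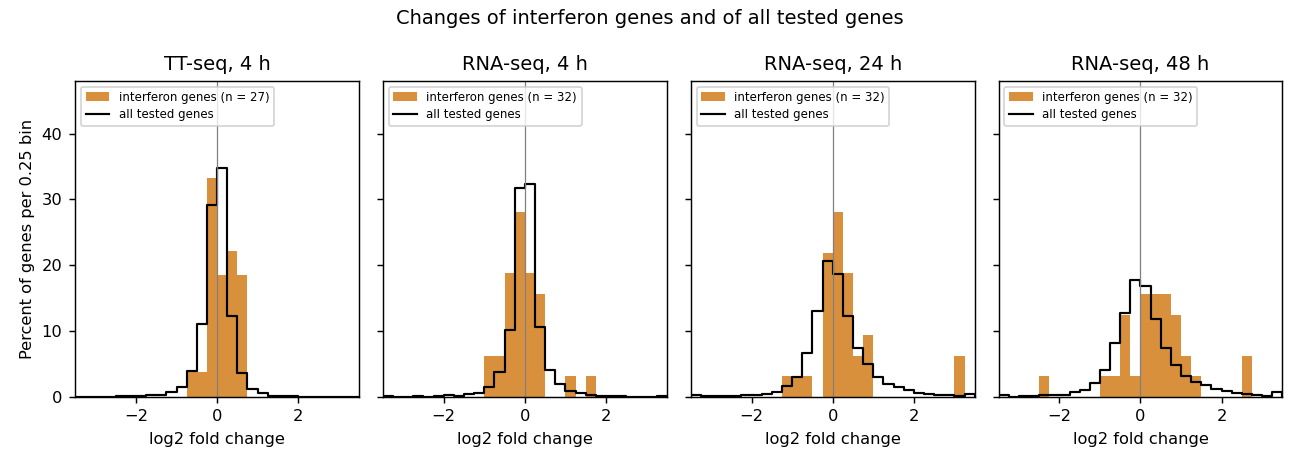
Share of genes (y axis, percent per bin of 0.25) by log2 fold change (x axis; values beyond the axis stand in the end bins) for tested interferon genes (bars, n = 27 in TT-seq and 32 in RNA-seq) and all tested genes (line). The bars lie to the right of the line at 48 h, where the medians are 0.45 for interferon genes and 0.03 for all genes.

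Of 7 tested signalling and transcription genes, 4 rose and 1 fell at 48 h, with a median log2 change of 0.43. These are 57.1% higher and 14.3% lower, against 24.9% and 24.6% of all tested genes. Nmi, which binds STAT proteins, had 10.2, 10.3 and 10.0 CPM at 0 h and 10.2, 10.0 and 10.2 CPM at 4 h. It had 15.1, 14.5 and 17.9 CPM at 24 h and 19.9, 21.6 and 21.8 CPM at 48 h. Its 24 h and 48 h libraries all lay above those of 0 and 4 h, and the log2 change was 0.64 ± 0.10 at 24 h (adjusted p = 0.000143) and 1.05 ± 0.10 at 48 h (adjusted p = 1.3e-06). Ifi35, a known binding partner of NMI, had 45.6, 48.01 and 51.0 CPM at 0 h and 51.9, 51.4 and 53.3 CPM at 4 h. It had 46.0, 50.1 and 46.7 CPM at 24 h and 34.8, 39.3 and 35.1 CPM at 48 h. Only its 48 h libraries stood below the others, with a log2 change of −0.41 ± 0.07 (adjusted p = 0.000366). Irf1 had 2.89, 3.69 and 3.26 CPM at 0 h and 4.16, 4.47 and 3.91 CPM at 4 h. It had 5.68, 4.73 and 6.82 CPM at 24 h and 6.54, 5.61 and 6.82 CPM at 48 h. All auxin libraries exceeded the 0 h ones, and the log2 change passed at 24 h (0.81 ± 0.17) and 48 h (0.95 ± 0.17). Stat2 had 23.1, 20.8 and 23.0 CPM at 0 h and 32.1, 29.3 and 26.0 CPM at 4 h. It had 28.5, 22.3 and 21.8 CPM at 24 h and 35.0, 30.7 and 29.0 CPM at 48 h. Its 24 h libraries overlapped those of 0 h, and it passed at 48 h (0.50 ± 0.12, adjusted p = 0.00281). With the replicate number as a block it also passed at 4 h (0.38 ± 0.08).

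Irf9, the DNA-binding partner of STAT2, was the 1 interferon gene higher at 4 h in the fit without a block. It had 18.8 ± 0.927 CPM at 4 h and 14.0 ± 0.819 CPM at 0 h (SD, n = 3 each), a log2 change of 0.43 ± 0.11 (adjusted p = 0.0284). It averaged 17.9 ± 2.35 CPM at 24 h and 18.2 ± 1.34 CPM at 48 h (SD, n = 3 each) and passed at both times (0.36 ± 0.11 and 0.38 ± 0.11). The 4 h call was lost without any of the 6 libraries of 4 h and 0 h, and the 24 h call without 0 h replicate 1, 24 h replicate 1 or 24 h replicate 3. Irf3 and Irf7, which act downstream of nucleic acid sensors, passed at no time, with log2 changes of 0.17 and −0.12 at 24 h and 0.15 and 0.43 at 48 h.

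Of the RNA sensors, Ddx58 was higher at 48 h, and Dhx58 and Ifih1, which encode LGP2 and MDA5, passed at no time. Ddx58 had 4.32, 5.74 and 3.38 CPM at 0 h and 2.24, 2.59 and 3.55 CPM at 4 h. It had 5.00, 5.15 and 6.45 CPM at 24 h and 6.51, 6.75 and 7.41 CPM at 48 h. The 48 h libraries all exceeded the 0 h ones, with a log2 change of 0.62 ± 0.21 (adjusted p = 0.0247) that was lost without 0 h replicate 1, 0 h replicate 3 or 48 h replicate 3. Their log2 differences at 48 h were 0.48 for Dhx58 and 0.08 for Ifih1.

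Antiviral effectors split, with 6 of 11 tested higher and 2 lower at 24 h, and 6 higher and 1 lower at 48 h. Higher genes were 54.5% of the 11 at both times, against 21.5% of all tested genes at 24 h and 24.9% at 48 h. Lower genes were 18.2% at 24 h, against 21.5%, and 9.09% at 48 h, against 24.6%. The higher genes include Mx1 and Oas1a at both times and Ifitm3 at 48 h, which had a median count under 10 at 0 h. Such genes could enter the test through the groups where they are high, so the 54.5% is not a clean measure of the class. Bst2, which encodes tetherin, had 21.3, 16.7 and 17.4 CPM at 0 h and 19.5, 17.7 and 17.6 CPM at 4 h. It had 33.3, 32.4 and 32.0 CPM at 24 h and 26.2, 33.2 and 27.3 CPM at 48 h. Every 24 h and 48 h library lay above every 0 h and 4 h library, with log2 changes of 0.82 ± 0.11 at 24 h (adjusted p = 5.4e-05) and 0.65 ± 0.11 at 48 h (adjusted p = 0.000243). Oas3 had 6.64, 7.80 and 7.54 CPM at 0 h and 7.48, 8.13 and 6.70 CPM at 4 h. It had 9.85, 8.53 and 11.7 CPM at 24 h and 12.9, 11.3 and 12.5 CPM at 48 h. It was higher at 24 h (0.45 ± 0.13; lost without 0 h replicate 1 or 24 h replicate 3) and at 48 h (0.74 ± 0.13, adjusted p = 0.000414), and the 24 and 48 h libraries did not overlap those of 0 h. Helz2, a helicase that acts as a coactivator of nuclear receptors, averaged 79.3 ± 5.75 CPM at 24 h and 76.4 ± 7.42 CPM at 48 h, against 62.2 ± 5.04 CPM at 0 h (SD, n = 3 each), and passed at both times (0.35 ± 0.09 and 0.30 ± 0.09), though not at 48 h without 0 h replicate 3 or 48 h replicate 1.

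Mx1 and Oas1a, a dynamin-like GTPase and a second oligoadenylate synthetase, were called from very few reads. Mx1 had 22, 15 and 25 counts at 24 h and 17, 14 and 14 counts at 48 h, against 1, 2 and 3 counts at 0 h. The ratio of scaled summed counts was 9.49 at 24 h (exact 95% interval 4.12 to 26.8, counting error only) and 6.88 at 48 h (2.92 to 19.7). Oas1a had 4, 15 and 12 counts at 24 h and 11, 6 and 6 counts at 48 h, against 0, 0 and 3 counts at 0 h, ratios of 9.49 (2.96 to 48.5) and 7.03 (2.12 to 36.6). For both genes all 24 and 48 h libraries exceeded all 0 h libraries, and both passed at both times (adjusted p = 0.000191 and 0.000558 for Mx1, 0.0115 and 0.0253 for Oas1a). The Oas1a call at 48 h was lost without 0 h replicate 1, 0 h replicate 2 or 48 h replicate 1. Mx1 and Oas1a had a median count under 10 at 0 h, as did Ifitm3 and Xaf1, and such genes could enter the test through the groups where they are high, so a higher call was nearly the only call open to them. Among the other 28 tested genes 10 were higher and 4 lower at 24 h, and 14 higher and 4 lower at 48 h, with median log2 changes of 0.15 and 0.34. Over all tested genes 21.5% were called in each direction at 24 h, and 24.9% higher and 24.6% lower at 48 h. Reads of Oas1a, Mx1 and the Ifitm genes can also fit near-identical relatives, so their assignment is uncertain.

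Of the 3 interferon-induced transmembrane genes tested, which block viral entry at membranes, 1 was higher at 24 h and 1 other at 48 h. Over all tested genes 21.5% and 24.9% were higher at these times. Ifitm2 had the most reads of the tested interferon genes in the time series. It had 121, 135 and 136 CPM at 0 h and 115, 132 and 126 CPM at 4 h. It had 115, 126 and 122 CPM at 24 h and 126, 146 and 119 CPM at 48 h, and the groups overlapped throughout. Ifitm1 averaged 6.85 ± 1.05 CPM at 24 h and 3.499 ± 0.668 CPM at 0 h (SD, n = 3 each), a log2 change of 0.97 ± 0.32 (adjusted p = 0.0246) that was lost without 0 h replicate 1, 24 h replicate 2 or 24 h replicate 3; at 48 h it averaged 2.90 ± 1.34 CPM. Ifitm3 had 18, 22 and 19 counts at 48 h and 5, 6 and 11 counts at 0 h, and passed at 48 h (1.29 ± 0.46, adjusted p = 0.0339), a call lost without any 48 h library or without 0 h replicate 1 or 2.

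Samd9l and Adar fell. Samd9l, a gene that restrains growth and viral replication, had 13.8, 12.2 and 10.7 CPM at 0 h and 10.2, 8.85 and 8.33 CPM at 4 h. It had 8.69, 6.01 and 6.86 CPM at 24 h and 10.2, 9.66 and 9.09 CPM at 48 h. All auxin libraries lay below those of 0 h, and the change passed at 24 h (−0.77 ± 0.15, adjusted p = 0.000915) and not at 48 h (−0.34 ± 0.14). Adar had 70.6, 75.7 and 80.0 CPM at 0 h and 68.0, 65.4 and 63.5 CPM at 4 h. It had 63.3, 62.04 and 68.4 CPM at 24 h and 59.5, 60.1 and 63.9 CPM at 48 h. All its auxin libraries lay below the 0 h range, by −0.22 ± 0.07 at 24 h and −0.30 ± 0.07 at 48 h (adjusted p = 0.0144 and 0.00178), the 24 h call lost without 0 h replicate 3 or 24 h replicate 2. Isg20, an exonuclease, passed at no time (−0.12 at 24 h and 0.12 at 48 h).

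The ubiquitin ligases of the list went in opposite directions. Rnf213, the 1 gene that passed in TT-seq and at all 3 RNA-seq times, had 109.5, 86.1 and 77.6 CPM at 0 h and 60.0, 55.2 and 56.9 CPM at 4 h. It had 49.5, 40.0 and 37.8 CPM at 24 h and 57.3, 41.5 and 48.3 CPM at 48 h. No auxin library reached the lowest 0 h library, and the log2 change was −0.67 ± 0.14 at 4 h (adjusted p = 0.0115), −1.10 ± 0.14 at 24 h (adjusted p = 3.9e-05) and −0.89 ± 0.14 at 48 h (adjusted p = 0.000136). Trim25, a ligase that modifies RIG-I, had 141, 156 and 141 CPM at 0 h and 119.6, 122 and 117 CPM at 4 h. It had 104, 97.0 and 89.0 CPM at 24 h and 99.9, 93.6 and 83.5 CPM at 48 h. Its auxin libraries were all below the 0 h range, and it fell at 4 h (−0.29 ± 0.08), 24 h (−0.59 ± 0.08) and 48 h (−0.66 ± 0.08, adjusted p = 1.1e-05); the 4 h call was lost without any library of 4 h or 0 h or without 24 h replicate 2.

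Dtx3l, a ligase that pairs with PARP9, and Trim21, a cytosolic antibody receptor, were higher at 48 h. Dtx3l had 21.8, 25.0 and 19.7 CPM at 0 h and 17.2, 21.97 and 19.02 CPM at 4 h. It had 29.0, 22.8 and 23.7 CPM at 24 h and 31.7, 30.7 and 30.1 CPM at 48 h. Its 48 h libraries all exceeded those of every other time (0.48 ± 0.12 against 0 h, adjusted p = 0.00398). Trim21 had 7.41, 7.47 and 7.25 CPM at 0 h and 6.52, 6.62 and 7.26 CPM at 4 h. It had 7.90, 6.76 and 7.98 CPM at 24 h and 13.4, 10.2 and 8.53 CPM at 48 h. The 48 h libraries did not overlap those of 0 h but spread widely, and the log2 change of 0.54 ± 0.15 was 0.33, short of the threshold, without 48 h replicate 1. Usp18, which removes ISG15 from proteins, was tested in TT-seq (0.50, not past) and the untreated lines only.

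Both tested ADP-ribosyltransferases were higher at 24 and 48 h, when 21.5% and 24.9% of all tested genes were. Parp9 had 12.1, 14.8 and 13.2 CPM at 0 h and 12.2, 11.9 and 12.2 CPM at 4 h. It had 20.9, 18.5 and 19.8 CPM at 24 h and 25.4, 24.1 and 26.9 CPM at 48 h. The 4 h libraries overlapped those of 0 h and the later ones were all above, with log2 changes of 0.56 ± 0.09 at 24 h (adjusted p = 0.000290) and 0.93 ± 0.09 at 48 h (adjusted p = 2.6e-06). Parp14 had 12.4, 11.1 and 9.66 CPM at 0 h and 11.5, 14.8 and 13.3 CPM at 4 h. It had 15.5, 13.5 and 15.8 CPM at 24 h and 21.6, 19.6 and 17.3 CPM at 48 h. It was higher at 24 h (0.44 ± 0.13; lost without 0 h replicate 3 or 24 h replicate 3) and at 48 h (0.82 ± 0.13, adjusted p = 0.000132), with no overlap with 0 h at either time.

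**Figure D4:**
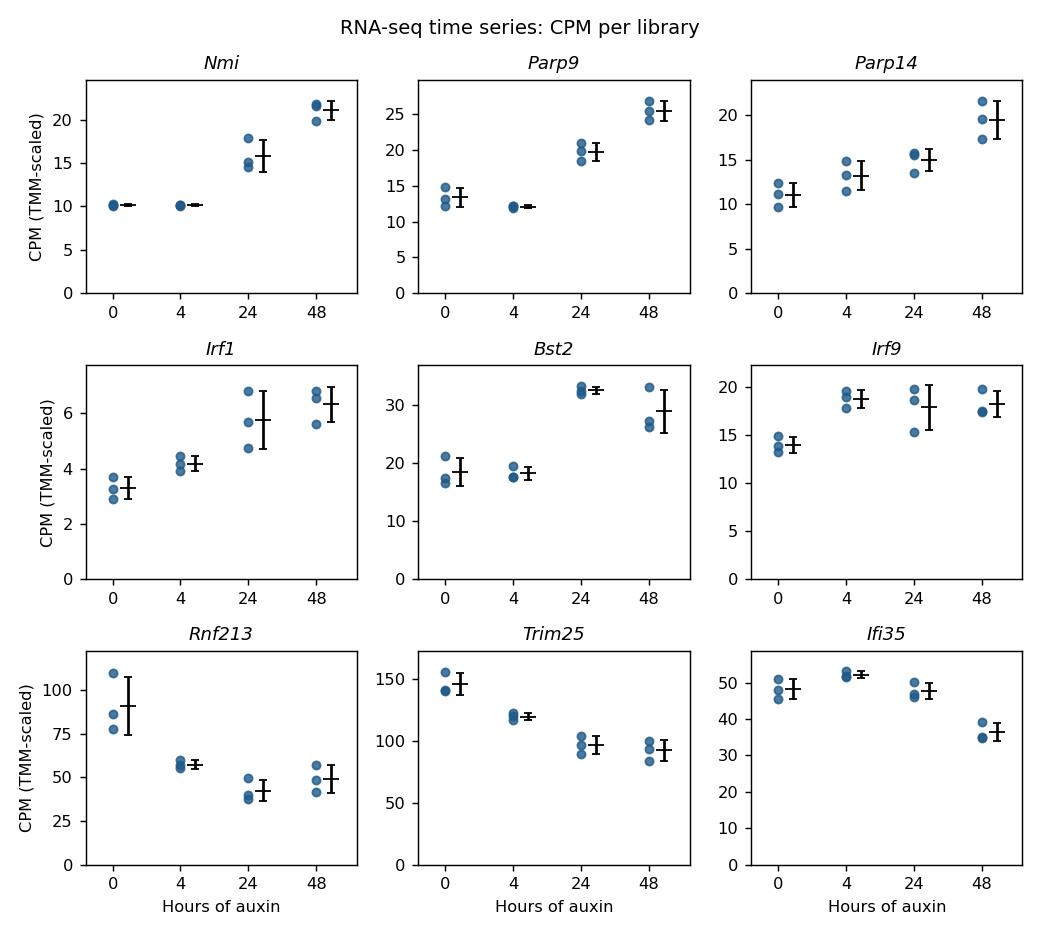
CPM (y axis, from 0) of 9 interferon genes at 0, 4, 24 and 48 h of auxin (x axis, evenly spaced and not to scale); points are the 3 libraries per time and bars give the mean ± SD. Nmi and Parp9 step up between 4 and 24 h and again at 48 h, Irf9 is already higher at 4 h, Rnf213 and Trim25 are lower from 4 h on, and Ifi35 is lower at 48 h.

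Of 5 tested genes of antigen presentation and other roles, 1 was higher at 24 h and 2 at 48 h, and 0 were lower. Higher genes were 20% at 24 h and 40% at 48 h, against 21.5% and 24.9% of all tested genes. Lower genes were 21.5% and 24.6% of all tested genes. B2m had 90.6, 79.6 and 85.2 CPM at 0 h and 72.4, 77.6 and 72.1 CPM at 4 h. It had 83.1, 81.9 and 79.5 CPM at 24 h and 96.8, 103.6 and 93.7 CPM at 48 h. Only its 48 h libraries lay above the 0 h range (0.20 ± 0.06, adjusted p = 0.0167; lost without 0 h replicate 2, 0 h replicate 3 or 48 h replicate 2). Tap1, the peptide transporter subunit, had 23.9, 21.6 and 24.3 CPM at 0 h and 17.1, 21.7 and 15.8 CPM at 4 h. It had 28.3, 31.3 and 26.5 CPM at 24 h and 30.0, 25.4 and 27.5 CPM at 48 h. It passed at 24 h (0.30 ± 0.12, adjusted p = 0.0486) and kept that call in only 2 of 12 leave-one-out fits, those without 4 h replicate 2 or 3. Lgals3bp, a secreted glycoprotein, had 2.73, 3.20 and 0.856 CPM at 0 h and 2.52, 1.32 and 1.79 CPM at 4 h. It had 2.63, 2.14 and 2.54 CPM at 24 h and 8.33, 3.18 and 3.35 CPM at 48 h. Its 48 h and 0 h libraries overlap, and the log2 change of 1.13 ± 0.44 at 48 h (adjusted p = 0.0476) was 0.52 without 48 h replicate 1, 0.73 without 0 h replicate 3, and kept its call only without 0 h replicate 2, 48 h replicate 2 or 48 h replicate 3.

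Xaf1, Sp100 and Oas1a had the fewest reads among the tested genes of the time series. Xaf1 had 8, 1 and 9 counts at 0 h and 2, 11 and 8 counts at 4 h. It had 7, 7 and 5 counts at 24 h and 12, 13 and 10 counts at 48 h. In the separate table of untreated lines Xaf1 had 186 and 115 counts in subline3, 260 and 86 in the YY1-AID subline and 382 and 112 in the parental line. The reason for this gap between tables was not tested. Sp100, a nuclear body protein, had 0, 21 and 12 counts at 0 h and 1, 14 and 3 counts at 4 h. It had 8, 30 and 1 counts at 24 h and 3, 2 and 2 counts at 48 h. Both genes spread widely within groups and neither passed.

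Between 48 h and 24 h of auxin, 3 of 32 genes were higher, against 3.03% of all tested genes, and 2 lower, against 2.84%. Nmi (0.41 ± 0.09, adjusted p = 0.0217), Parp9 (0.37 ± 0.09, adjusted p = 0.0294) and B2m (0.27 ± 0.06, adjusted p = 0.0275) were higher at 48 h, and Ifi35 (−0.39 ± 0.07, adjusted p = 0.00794) and Ifitm1 (−1.24 ± 0.32, adjusted p = 0.0386) lower. For Ifitm1 the libraries had 2.64, 4.36 and 1.71 CPM at 48 h and 5.72, 7.03 and 7.79 CPM at 24 h, with no overlap. The Ifi35 call was kept without any 1 library, while those of Nmi, Parp9, B2m and Ifitm1 each depended on 4 or 5 of the 6 libraries compared.

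The TT-seq and RNA-seq libraries are separate, so the early nascent change can be set beside the later level. Of the 17 genes higher at 48 h, 14 were tested in TT-seq and 11 of these had a positive log2 change there, a median of 0.27; among all genes higher at 48 h 79% were positive, with a median of 0.16. Of the 4 genes lower at 48 h, 1 was positive in TT-seq, against 26.9% of all genes lower at 48 h. In TT-seq Nmi had 6.35, 6.32 and 6.29 CPM after 4 h of auxin and 6.82, 6.64 and 5.84 CPM without it. Parp9 had 9.85, 10.6 and 11.2 CPM after auxin and 10.8, 10.7 and 11.3 CPM without it there. The groups overlapped for both genes, which were higher in RNA-seq at 24 and 48 h.

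Other genes of the pathway were taken from lists by role; at 48 h the median log2 change was 0.48 for STAT and IRF factors outside the 48, 0.20 for genes that restrain the pathway, 0.19 for receptors and Janus kinases and 0.16 for other inducible genes, against 0.03 over all tested genes. All 9 interferon ligands, including Ifnb1 and Ifng, had 0 counts in every TT-seq and time-series library. Of 8 tested receptors and Janus kinases, 2 were higher and 2 lower at 24 h (25% each, against 21.5% of all tested genes), and 4 were higher and 1 lower at 48 h (50% and 12.5%, against 24.9% and 24.6%). The receptor subunit Ifngr1 was higher at 4 h (0.37 ± 0.10), 24 h (0.58 ± 0.09) and 48 h (0.51 ± 0.09), its partner Ifngr2 lower at 24 h (−0.78 ± 0.18) and 48 h (−0.49 ± 0.18), and the kinase Tyk2 higher at 24 h (0.36 ± 0.07) and 48 h (0.47 ± 0.07). Of 5 other STAT and IRF factors, 1 was higher at 24 h and 4 at 48 h (20% against 21.5% of all tested genes, and 80% against 24.9%), among them Irf5 (1.34 ± 0.22) and Stat3 (0.48 ± 0.11).

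Among 9 genes that restrain the pathway, 2 were higher at 24 h (22.2%, against 21.5% of all tested genes), and 4 were higher and 1 lower at 48 h (44.4% and 11.1%, against 24.9% and 24.6%). Socs3, a feedback inhibitor of cytokine receptors, had 2.92, 4.23 and 4.31 CPM at 4 h, 5.72, 7.33 and 4.36 CPM at 24 h and 3.87, 4.74 and 4.99 CPM at 48 h, against 2.53, 1.72 and 1.39 CPM at 0 h. It passed at each time (1.02 ± 0.26, 1.62 ± 0.26 and 1.27 ± 0.26), with no overlap with 0 h, and its relative Socs1 was lower at 48 h (−0.78 ± 0.31). Of 7 tested adaptors and kinases of nucleic acid sensing, 2 were higher at 24 h and 3 at 48 h, and 0 were lower (28.6% against 21.5%, and 42.9% against 24.9%); the median log2 change at 48 h was 0.02, against 0.03 over all tested genes. The kinase Ikbke was among them and also higher at 24 h (1.51 ± 0.19 at 24 h and 1.47 ± 0.19 at 48 h).

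Of 22 other interferon-inducible genes tested in the time series, 5 were higher and 3 lower at 24 h, and 7 higher and 3 lower at 48 h. As shares these are 22.7% higher and 13.6% lower at 24 h, against 21.5% of all tested genes in each direction, and 31.8% higher and 13.6% lower at 48 h, against 24.9% and 24.6%. Ifi27, a mitochondrial protein, was higher, with log2 changes of 1.03 ± 0.08 at 24 h and 1.35 ± 0.08 at 48 h. Uba7, the enzyme that activates ISG15, was higher at 48 h (0.74 ± 0.10), and Trim30a was higher in TT-seq (0.68 ± 0.15), at 24 h (0.84 ± 0.19) and at 48 h (1.35 ± 0.19). Irgm1 and the immunoproteasome subunit Psmb10 were lower at 48 h (−0.38 ± 0.10 and −0.76 ± 0.14). Nlrc5, a regulator of class I genes, was lower at 4 h from 2, 1 and 1 counts at 4 h, against 7, 8 and 11 counts at 0 h, a ratio of 0.150 (exact 95% interval 0.0381 to 0.434).

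The summed level of 8 megakaryocyte and mast cell markers was 75.0 to 108 CPM at 0 h, 90.0 to 99.5 CPM at 4 h, 174 to 208 CPM at 24 h and 272 to 320 CPM at 48 h, with Mcpt4 at 0 in every group. The sum of 9 macrophage and granulocyte markers was 3.75 to 4.92 CPM at 0 h and 3.22 to 4.32 CPM at 48 h. Within it 3 markers had enough counts to be tested: Csf1r (1.62 ± 0.49) and Lyz2 (2.11 ± 0.41) were higher at 48 h and Cd68 was lower (−1.25 ± 0.32), each averaging at most 3.61 CPM at either time. The sum of 9 lymphocyte and plasmacytoid dendritic cell markers was 65.2 to 76.4 CPM at 0 h, 47.2 to 54.4 CPM at 4 h, 39.7 to 56.1 CPM at 24 h and 43.8 to 51.0 CPM at 48 h, with Cd3e and Cd4 at 0 throughout. The part of these markers in the changes of the interferon genes was not tested, and in these bulk samples fewer cells of a type and less RNA per cell cannot be told apart.

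Untreated lines were compared to see whether the degron lines differed from the parental line before any auxin. None of 32 tested interferon genes passed in any of the 3 comparisons by edgeR, where 0% of all tested genes passed for the YY1-AID subline against the parental line and for subline3 against the parental line, and 0.0826% for subline3 against the YY1-AID subline. At an unadjusted p under 0.05 there were 7 interferon genes for the YY1-AID subline against the parental line, where 5.11% of all tested genes were, 5 for subline3 against the parental line (4.9%) and 6 for subline3 against the YY1-AID subline (5.25%). DESeq2 called 1 interferon gene higher in each, against 0.464%, 0.716% and 1.28% of the genes it tested, in the same order. Ifitm1 had 5.16 and 5.54 CPM in subline3, 9.56 and 8.49 CPM in the YY1-AID subline, and 1.67 and 1.81 CPM in the parental line. Both sublines lay above the parental line without overlap, by 1.62 ± 0.23 (adjusted p = 0.232) and 2.37 ± 0.24 (adjusted p = 0.0832). Ifitm3 had 5 and 10 counts in subline3, 14 and 20 in the YY1-AID subline and 2 and 1 in the parental line. Its sublines also lay above the parental line without overlap, from few reads and without passing by edgeR. Usp18 had 0.277 and 0.172 CPM in subline3, 0.098 and 0.100 CPM in the YY1-AID subline, and 0.495 and 0.741 CPM in the parental line. It was below the parental range in both sublines (−1.46 ± 0.52 and −2.60 ± 0.57), from few reads and without passing.

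Libraries of the same number deviated together across the lines, a visible batch, and values within it are given by the fit with the number as a block. For the YY1-AID subline against the parental line that fit called Ifitm1 (2.37 ± 0.22), Oas3 (0.92 ± 0.20) and Stat2 (0.53 ± 0.12) higher, against 1.63% of all tested genes, and Samd9l lower (−0.99 ± 0.19), against 2.4%. For subline3 against the parental line it called Ifitm1 (1.62 ± 0.22), Oas3 (0.84 ± 0.20), Parp14 (0.76 ± 0.17), Ifih1 (0.72 ± 0.14) and Tap1 (0.54 ± 0.12) higher, against 4.2% of all tested genes, and 0 lower, against 2.05%. For subline3 against the YY1-AID subline it called Samd9l (1.44 ± 0.19), Ifih1 (1.11 ± 0.14), Parp14 (1.02 ± 0.17) and Tap1 (0.64 ± 0.12) higher, against 4.43%, and Stat2 lower (−0.75 ± 0.12), against 1.74%. Samd9l had 9.71 and 16.3 CPM in subline3, 4.25 and 5.04 CPM in the YY1-AID subline, and 7.12 and 11.9 CPM in the parental line; subline3 overlapped the parental line. The genes with the most reads here were Ifitm2, B2m and Trim25, and Trim25 had 60.8 and 133.5 CPM in subline3, 49.3 and 148 CPM in the YY1-AID subline, and 45.0 and 119.1 CPM in the parental line, a larger gap between numbers than between lines. The summed level of the erythroid markers was 2614 to 3899 CPM in subline3 and 2679 to 3415 CPM in the YY1-AID subline. It was 1511 to 1725 CPM in the parental line. Single markers differed widely. Log2 differences from the parental line ran from −0.16 to 2.69 in subline3 (median 0.33) and from −0.16 to 2.92 in the YY1-AID subline (median 0.26). None of the 10 passed in the fit without a block. The part of these markers in the differences of the interferon genes between lines was not tested.

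**Figure D5:**
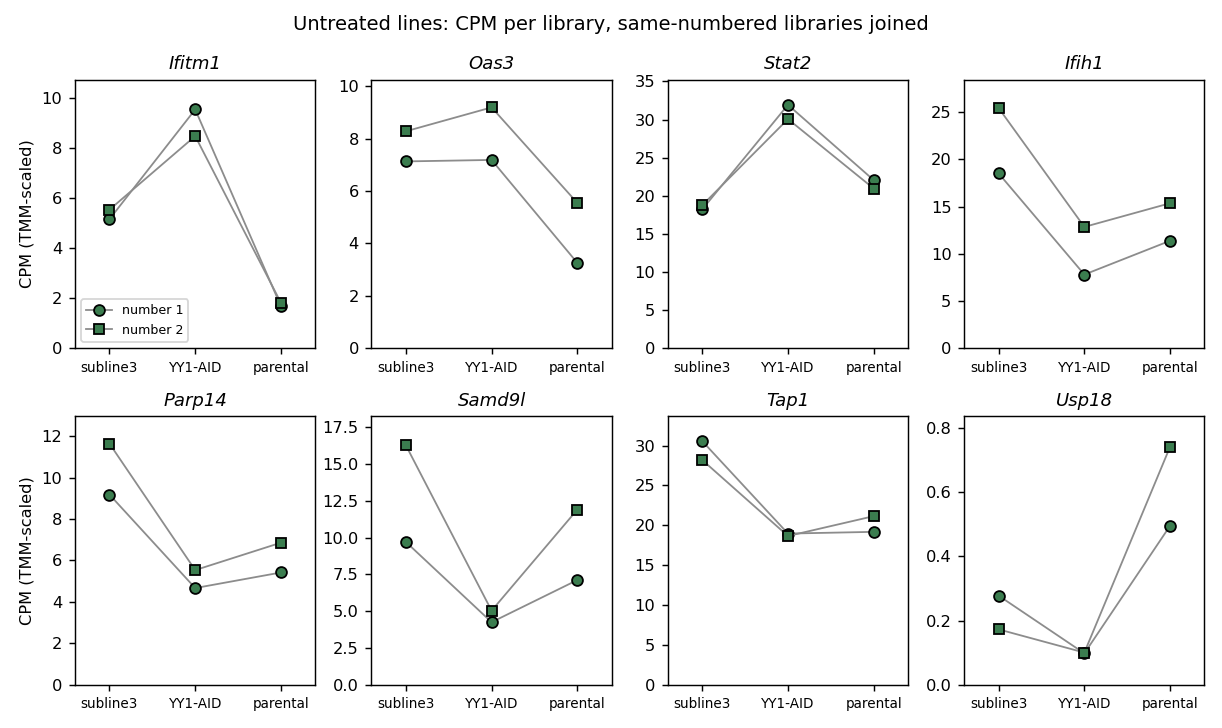
CPM (y axis, from 0) of 8 interferon genes in untreated YY1-AID subline3, YY1-AID subline and parental cells; points are libraries and lines join libraries with the same number. Ifitm1 and Oas3 lie above the parental line in both sublines, within each number Samd9l, Ifih1 and Parp14 are highest in subline3, and Stat2 is highest in the YY1-AID subline.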

How the data were processed

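The authors deposited RNA-seq as whole-number counts for each gene symbol. Per the submitters' processing notes, Salmon 0.13.1, DESeq2 and the build mm9 were used; which transcripts were counted is not stated in these sources. TT-seq values are counts per gene deposited for mouse and, separately, for a Drosophila spike-in (500 ng into 100 µg, per the labels). The same notes name STAR, SAMtools and Trim Galore 0.6.10. The RNA-seq kit marks strand, per the labels' protocols, but no source says whether counting used strand, so overlapping antisense genes could not be separated. Lines naming no gene were left out (no feature 17.2% to 22.2% and ambiguous 0.391% to 0.529% of a TT-seq library).

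Each table was fitted in 1 model with edgeR 4.0.16 in R 4.3.3 (TMM, filterByExpr by group, quasi-likelihood F-test, Benjamini-Hochberg over all tested genes, threshold 0.05), without a replicate term, and the script was tested on simulated data. Alternatives were DESeq2 1.42.0, its size factors, no filter, only the 2 groups compared, the replicate number as a block, spike-in sizes, no Rn45s, and each library left out. Same-numbered libraries correlated in their deviations at 0.40 to 0.66 in TT-seq and at most −0.09 otherwise. The blocked TT-seq fit therefore pairs libraries by number, from the data and not the labels, while the main fit leaves the pairing out. In the untreated lines the same-number values were 0.63 to 0.74 with 2 libraries per group, and in the time series −0.07 to 0.10. Time-series libraries of different groups and numbers correlated at −0.10 to 0.09. The labels do not say that replicates are separate cultures, so p-values measure the spread between these libraries, which may be technical. Libraries of a group differed by more than sampling noise.

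The genes and lists were chosen with earlier results of these data known. Every interferon gene past the threshold is named; values of each library are given for at most 4 per role group (mean log2 CPM 1 or more), by smallest adjusted p, and for the 3 with the most and the 3 with the fewest reads of a table. Of other pathway genes at most 3 per list and comparison are named. Some genes that this rule would name are not reported here. Promoter sequences are from RefSeq (GRCm38.p6); the study's peaks use mm9 and were not used here. Intervals of count ratios are exact (SciPy 1.17.1) and cover counting error only.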

Additional observations from a re-analysis of the deposited data

Results flagged for a closer look

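In 5 interferon genes the change from 0 h differed between 48 h and 24 h of auxin, as tested by the direct comparison of the 2 times in edgeR (log2 difference, 48 h minus 24 h). It was 0.41 for Nmi, 0.37 for Parp9 and 0.27 for B2m, which stood higher at 48 h, and −0.39 for Ifi35 and −1.24 for Ifitm1, which stood lower. Ifi35 had 34.8 to 39.3 CPM at 48 h and 46.0 to 50.1 CPM at 24 h. Ifitm1 was called against 0 h at 24 h only. No group held 4 or more libraries, so single libraries were not tested for standing apart.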

How the results depend on the processing

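The fits without a block made 48 calls on single genes. None of them changed direction over 805 alternative values, and 108 of these values fell short of the threshold, most with a library left out. In TT-seq the counts of 2 higher and 1 lower became 7 and 5 with the replicate block, 0 and 0 with spike-in sizes, and 5 and 4 with both; the higher count was 0 without the libraries numbered 1 (an alternative chosen after seeing the data) and 0 to 1 with a library left out, the lower count 0 to 1. At 4 h the 1 higher became 2 without a filter, with DESeq2, with the block and with only the 2 groups, and 0 to 2 with a library left out. The 2 lower became 7 with DESeq2, 3 without a filter, 3 with the block and 1 to 2 with a library left out. At 24 h the 12 higher ranged from 7 to 12 with a library left out. For 48 h against 24 h the 3 higher became 6 with DESeq2, 5 with the block, 1 with only the 2 groups and 0 to 3 with a library left out, and the 2 lower became 1 with only the 2 groups and 1 to 2 with a library left out. In the untreated lines 0 became 3 higher and 1 lower (YY1-AID subline against parental), 5 higher (subline3 against parental) and 4 higher and 1 lower (subline3 against the YY1-AID subline) with the block, 1 higher in each with DESeq2, and 1 higher in the first without a filter. The causes were not tested. In the time series the deviations correlated at −0.07 to 0.10 between same-numbered libraries. Between libraries of different groups and numbers they correlated at −0.10 to 0.09. These ranges nearly coincide, so the deviations show no clear pairing of the time-series libraries by number, unlike those of TT-seq. The labels do not say whether a number marks a shared culture. Low counts left 15 of the 48 genes untested in every table.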
